A study of Sus scrofa with 6 samples.

Results

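The cells described here are TH-positive, dopaminergic-type neurons from pig midbrain-like organoids on day 28 and day 45 of culture (D28 and D45). TH (tyrosine hydroxylase) makes the precursor of dopamine. A cell was counted as a member when it had at least 2000 UMIs (unique molecular identifiers, each standing for 1 captured mRNA molecule) and at most 7000 detected genes, at least 2 TH UMIs, at least 1 UMI of 1 or more of SLC18A2, SLC6A3, DDC and NR4A2, and fewer than 2 of the GABAergic genes GAD1, GAD2 and SLC32A1. This gate was passed by 1407 of the 41956 cells within the UMI and gene limits, from 68121 cell barcodes of the D28 and D45 libraries and 104820 of the whole series. Because the gate reads TH and its partner genes, their levels are a description of the choice and carry no test.

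Midbrain dopaminergic neurons arise from the floor plate, the ventral midline of the neural tube, under sonic hedgehog and WNT signals. The transcription factors LMX1A, FOXA2 and EN1 mark that origin, and NR4A2 and PITX3 act later to switch on the genes for dopamine synthesis and transport. In this pathway TH and DDC make dopamine, SLC18A2 loads it into vesicles, and SLC6A3 takes it back up after release. The neurons of the substantia nigra are the cells lost in Parkinson disease, and the pig serves as a large-animal model for them.

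All libraries came from 1 embryonic stem cell line made from in vitro fertilized pig embryos (IVF_1_ pESC_FIW), so a difference between lines could not be seen. Embryoid bodies were patterned with SB431542 and Noggin, which block SMAD signalling, with sonic hedgehog and with the WNT activator CHIR99021, then given FGF8, BDNF and ascorbic acid and kept later with BDNF, GDNF, ascorbic acid, db-cAMP and DAPT. D28 and D45 carried the same genotype and agents and differed in the time of culture, with 2 libraries (replicates A and B) on each day, described as biological duplicates. No sorting of cells is described for these whole-organoid suspensions, and the labels nevertheless call every library midbrain dopaminergic neurons, whereas 1.09% to 5.91% of the cells within the limits passed the gate.

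Values are given below in the order D28 A, D28 B, D45 A and D45 B. CPM is the number of UMIs of a gene per 1000000 UMIs of the same cells, and since 3' UMIs are not scaled to gene length, levels were compared between cells and not between genes. The gated cells of a library were compared with its other cells that held at least 1 UMI of the neuronal gene STMN2, which were 31510 in all. UMIs were summed over the cells of each kind in each library, and the sums were tested with edgeR's quasi-likelihood test and Benjamini-Hochberg adjustment at an adjusted p of 0.05. The 9 genes that the gate or the comparison group is built on were fitted with the rest and so entered the adjustment. They were left out of all counts, and no test of them is reported.

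The libraries held 112777548 to 135311951 UMIs, and the gated cells 1406538 to 5890844 of them. Any pair of libraries in the series shared 55 to 119 barcodes. D45 A stood apart among the gated cells, with 114 of them against 367 to 546 elsewhere, and 33.3% of those 114 were scored as doublets (droplets with more than 1 cell) against 6.32% to 21.5% in the other libraries. Values without D45 A are given beside many of the results below.

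The comparison group also had a limit. The other cells had a median of 9, 7, 4 and 3 STMN2 UMIs, whereas the gated cells had 44, 37, 25 and 38. From 60.4% to 61.7% of the cells with fibroblast markers also held an STMN2 UMI, so part of the comparison group is not neuronal. A second comparison, chosen after the data were seen, therefore kept on both sides the cells with at least 4 of STMN2, DCX, ELAVL3, MAPT and SNAP25. It kept 453, 363, 94 and 296 of the gated cells and 40.8%, 51.9%, 53.9% and 47.8% of the other cells, and is called the neuron-matched comparison below. The name gives the cut and does not mean equal neuronal content or depth. Kept gated cells held 5347, 3741, 3293 and 4581 CPM of STMN2, and kept other cells 4371, 2389, 1440 and 1705 CPM. The relative gap was wider on D45. Median depth was 10099, 10468, 11956.5 and 12312 UMIs against 7466, 8524.5, 9630 and 9142. Where both comparisons are given, the fold changes of this one are named as neuron-matched.

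The gate genes were not evenly held. The TH level was 777, 500.3, 338 and 652 CPM in the gated cells and 13.4, 19.7, 14.4 and 18.1 CPM in the other cells. TH was lowest in D45 A, where 49.1% of the gated cells sat at exactly 2 TH UMIs, the least that the rule accepts, against 26.0%, 35.8% and 32.4% in D28 A, D28 B and D45 B. The median gated cell held 5, 3, 3 and 4 TH UMIs, and the highest 85, 37, 33 and 144. Cells with 1 TH UMI and a partner gene, just outside the rule, numbered 499, 432, 183 and 483. Members at exactly 2 TH UMIs held 78.2, 115, 39.6 and 93.5 CPM of EN1 and 227, 203, 127 and 125 CPM of LMX1A. Those just outside held 54.5, 41.5, 5.41 and 28.8 CPM of EN1 and 131, 127, 58.1 and 66.2 CPM of LMX1A, so both genes were lower outside the rule than at its edge in each library, and no test was made of this.

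The upstream sequence of TH and of SLC18A2 is printed because these genes of the gate hold the same letters there, which were not found in the windows of DDC, SLC6A3 and NR4A2. The windows are the 250 bases before the RefSeq gene start on Sscrofa11.1, on the gene's own strand. They lie at chr2:1506181-1506430 on the minus strand for TH, upstream of its gene at positions 1499628 to 1506180 of chromosome 2, and at chr14:127357355-127357604 on the plus strand for SLC18A2. Capitals mark the letters TGACGTCA, the full cAMP response element, and TATAAA, the core promoter box that sets the start of transcription.
TH: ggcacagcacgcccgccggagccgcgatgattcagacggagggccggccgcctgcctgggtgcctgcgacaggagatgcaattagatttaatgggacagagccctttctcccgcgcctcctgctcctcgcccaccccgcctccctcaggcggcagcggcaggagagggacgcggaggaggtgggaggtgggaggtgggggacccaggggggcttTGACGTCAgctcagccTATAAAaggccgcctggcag
SLC18A2: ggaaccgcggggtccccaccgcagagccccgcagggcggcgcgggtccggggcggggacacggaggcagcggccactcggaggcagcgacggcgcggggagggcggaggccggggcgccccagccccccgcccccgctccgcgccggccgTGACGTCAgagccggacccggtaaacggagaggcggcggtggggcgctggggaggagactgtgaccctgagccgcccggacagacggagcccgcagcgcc

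In TH the element TGACGTCA stood 36 to 29 bases before the start, with TATAAA at 20 to 15 bases, and in SLC18A2 the element stood 100 to 93 bases before it. Of 19545 windows of the same length before RefSeq genes, searched on both strands, 1.70% held TGACGTCA and 9.77% held TATAAA. The NR4A2 response element AAAGGTCA was found in 0 of the 22 windows searched and in 0.834% of all windows. These are matches of letters, and no binding was measured.

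Among the partner genes DDC and NR4A2 were detected far more often than the transporters. DDC was detected in 78.6%, 77.1%, 46.5% and 77.9% of gated cells and NR4A2 in 77.3%, 73.9%, 77.2% and 70.8%. The vesicular transporter SLC18A2 was seen in 19.2%, 26.6%, 15.8% and 28.3%, and the dopamine transporter SLC6A3 in 19.4%, 17.6%, 3.51% and 12.0%. D45 A was lowest for DDC, SLC18A2 and SLC6A3 but not for NR4A2. All 4 partner genes were detected in 23, 28, 0 and 25 cells, and in D45 A 65.8% of gated cells held a single partner gene, against 35.0% to 39.8% in the other libraries.

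Free RNA in the droplets gives stray TH UMIs, which bears on a gate set at 2. Among cells with fibroblast markers and no STMN2, which should lack TH, 5.29%, 5.97%, 2.36% and 7.02% held at least 1 TH UMI, at a median of 12043.5, 17001, 13240.5 and 12122.5 UMIs per cell. At least 2 TH UMIs were seen in 0, 0, 0 and 0.351% of these cells, and the counts of 0 among 548, 67 and 212 cells allow shares of up to 0.547%, 4.48% and 1.42% in D28 A, D28 B and D45 A. The limits of D28 B and D45 A are above the shares of gated cells in those libraries (3.43% and 1.09%), so the fibroblast cells set no useful bound there. The gated cells, with a median of 9438.5, 10417.5, 11573.5 and 11001 UMIs, lay above this background by their own definition.

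The gated cells made up 5.91% of the cells within the limits in D28 A (546 of 9240, exact 95% binomial interval 5.44% to 6.41%) and 3.43% in D28 B (380 of 11070, 3.10% to 3.79%). On D45 they made up 1.09% in replicate A (114 of 10506, 0.896% to 1.30%) and 3.29% in replicate B (367 of 11140, 2.97% to 3.64%). The intervals cover counting error only. The mean share was 4.67% ± 1.75 (SD, n = 2) on D28 and 2.19% ± 1.56 on D45, so the difference between days was of the size of the spread between replicates, and the intervals of D45 B and D28 B overlapped. With 2 libraries a day no exact permutation test can pass the threshold, and none was run. As a share of the cells with STMN2 the values were 7.08%, 4.54%, 1.32% and 4.18%.

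The share depends strongly on depth. When every cell was thinned to 2000 UMIs, 2.08%, 0.768%, 0.181% and 0.978% of cells still passed, and D45 B then lay above D28 B. The limit on GABAergic genes also removed more cells in some libraries than in others. It left out 0, 60, 65 and 71 cells that passed the other criteria. Cells with at least 2 TH UMIs and no partner gene numbered 97, 219, 153 and 152.

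**Figure D1:**
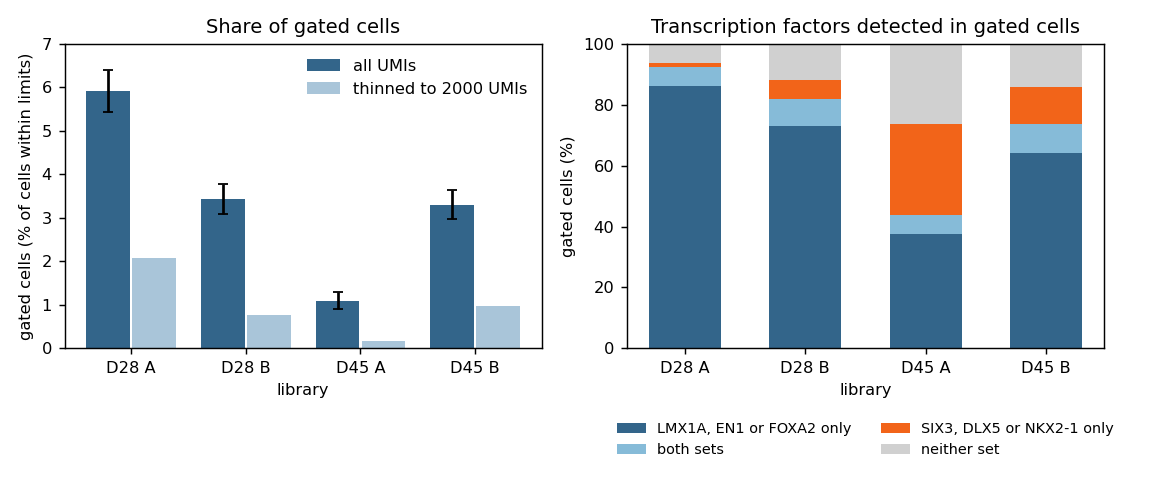
The left plot gives gated cells as a percentage of cells within the limits in each library, as counted (dark bars, exact 95% binomial intervals as error bars) and after thinning to 2000 UMIs (light bars). The right plot splits the gated cells of each library by the transcription factors detected, and the part with LMX1A, EN1 or FOXA2 is smallest in D45 A, where 29.8% of cells held SIX3, DLX5 or NKX2-1 without them.

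Genes of midbrain dopaminergic identity that the gate did not read were higher in the gated cells. Over all genes tested, 15.0% were called higher and 16.3% lower than in the other cells, and in the neuron-matched comparison 8.23% and 6.67%. Of 12 listed midbrain transcription factors 9 were higher, 2 were lower and 1 was not called, with a median log2 fold change of 1.46 beside -0.01 for all genes. In the neuron-matched comparison 9 were higher and 2 lower, with a median of 1.58. These were not the same 9, since FOXA1 was called there and not in the wider comparison. These genes and the gate genes were measured in the same cells, and the list was chosen with earlier results of these data known.

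The engrailed genes, which set midbrain and anterior hindbrain identity, were higher in the gated cells of each library. EN1 was at 356, 267, 59.7 and 204 CPM in the gated cells and 35.3, 24.8, 5.34 and 13.3 CPM in the other cells (log2 fold change 3.59, SE 0.12, edgeR adjusted p = 7.09e-06). EN2 was at 125, 207, 39.1 and 127 CPM against 12.5, 22.7, 4.18 and 12.1 CPM (log2 fold change 3.33, SE 0.09, edgeR adjusted p = 2.70e-06). The groups did not overlap for either gene, although D45 A was the lowest gated library for both. In D45 A 61.9% of the EN1 UMIs were in called doublets, and the log2 fold change of EN1 was 3.60 without D45 A. In the neuron-matched comparison the log2 fold changes were 3.89 and 3.56. EN1 was detected in 61.9%, 56.3%, 24.6% and 57.8% of gated cells.

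LMX1A, a floor plate factor that specifies dopaminergic progenitors and stays on in the neurons, was at 218, 242, 186 and 209 CPM in the gated cells and 116, 68.6, 22.5 and 37.5 CPM in the other cells (log2 fold change 2.08, SE 0.30, edgeR adjusted p = 0.0014). Each gated library was above every library of the other cells, but in D45 A 80.9% of the LMX1A UMIs were in cells scored as doublets, and LMX1A was detected in 32.5% of gated cells there against 58.9% to 77.3% elsewhere. Without called doublets the levels were 219.7, 243, 60.9 and 210.4 CPM in the gated cells and 114, 66.4, 18.2 and 33.9 CPM in the other cells, so D45 A then lay below both D28 libraries of the other cells and above its own. In the neuron-matched comparison LMX1A was at 213, 246, 153 and 225 CPM against 159.9, 74.0, 24.1 and 48.5 CPM (log2 fold change 1.81), so gated D45 A lay below the other cells of D28 A, while each gated library was above its own other cells. The wider log2 fold change was 1.84 without doublets and 1.77 without D45 A, both called. PITX3, which maintains dopaminergic neurons of the substantia nigra, was called at a log2 fold change of 3.91 (neuron-matched 3.92) but rested on 16, 7, 2 and 8 UMIs, in 13, 7, 2 and 5 cells. LMX1B (log2 fold change 1.46, SE 0.16, neuron-matched 1.20) and OTX2 (log2 fold change 1.10, SE 0.16, neuron-matched 1.23) were higher as well.

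FOXA2, a floor plate factor, was at 57.0, 42.8, 44.1 and 8.15 CPM in the gated cells and 21.3, 30.8, 4.30 and 4.61 CPM in the other cells (log2 fold change 1.46, SE 0.40, edgeR adjusted p = 0.0236). The groups overlapped across days, since FOXA2 in the gated cells of D45 B was below the other cells of D28. Without D28 A the adjusted p was 0.0599 at a log2 fold change of 1.46 (edgeR), and in the neuron-matched comparison the fold change was 2.09 and passed. FOXA1 was not called in the wider comparison (log2 fold change 0.87) and passed in the neuron-matched one (1.36) and without D28 A (1.19). SOX6, a factor of ventral substantia nigra neurons, was lower in the gated cells, at 26.7, 54.0, 99.5 and 122 CPM against 102, 288, 471 and 456 CPM. Its log2 fold change was -2.08 (SE 0.10, neuron-matched -1.73). In D28 A, D28 B and D45 A 35.7%, 44.4% and 47.1% of the gated SOX6 UMIs were in called doublets. The other cells included 22, 487, 1411 and 955 cells with at least 2 GABAergic genes, which the gate keeps out of the gated cells. The SOX6 difference is thus not a measure of nigral identity. MSX1, a factor of midline progenitors, was lower too (log2 fold change -1.37, SE 0.29, neuron-matched -1.84).

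**Figure D2:**
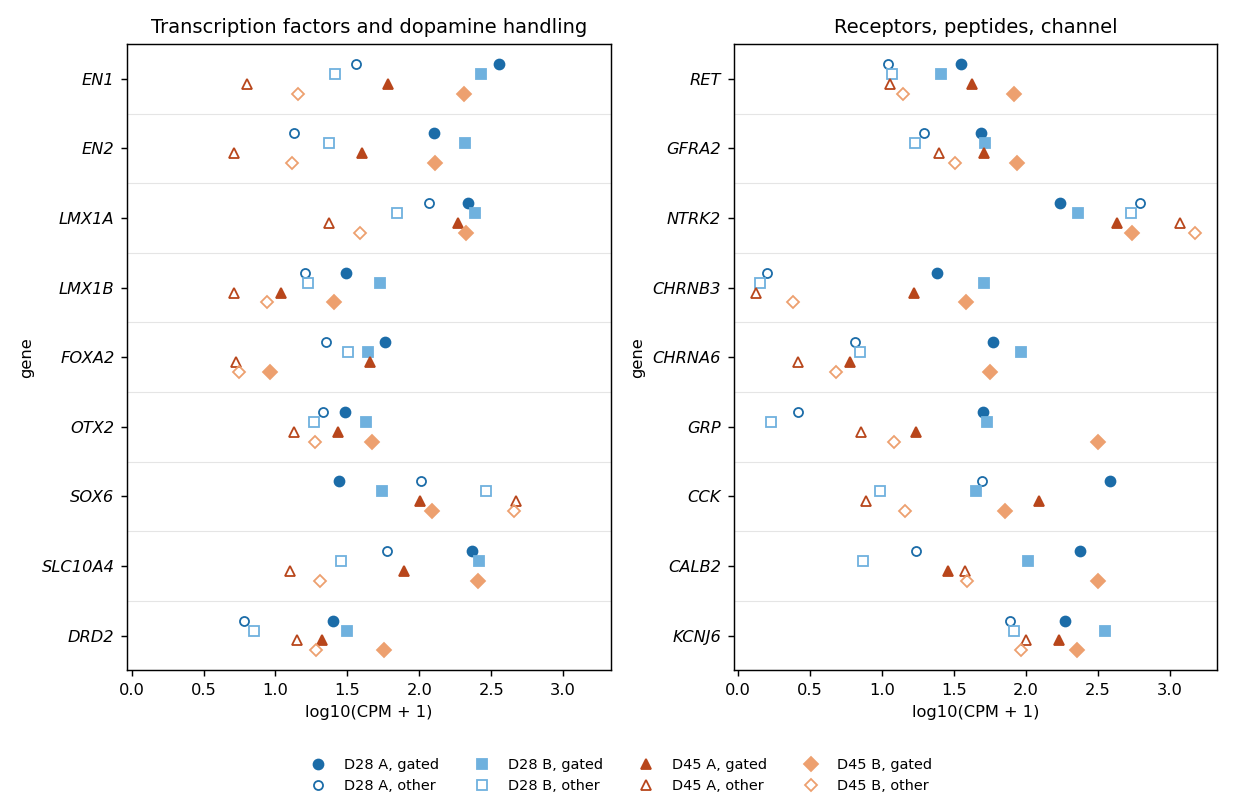
Each row is a gene and each symbol 1 library, filled for gated cells and open for other cells with STMN2, on an axis of log10(CPM + 1). Within each library EN1 and CHRNB3 show wide gaps between filled and open symbols, and GRP does so except in D45 A, where its gap is narrower. SOX6 and NTRK2 lie the other way within each library, with overlap across libraries.

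Among genes of dopamine handling that the gate did not use, 5 of 12 tested were higher and 2 lower in the wider comparison, and 5 of 11 were higher and 0 lower in the neuron-matched one. SLC10A4, a vesicular protein of aminergic neurons, was at 233, 259.6, 77.5 and 253 CPM against 58.6, 27.4, 11.6 and 19.5 CPM (log2 fold change 2.96, SE 0.26). DRD2, the autoreceptor by which these neurons sense their own dopamine, was at 24.3, 30.2, 19.9 and 55.7 CPM against 5.03, 6.04, 13.2 and 18.1 CPM (log2 fold change 1.82, SE 0.25). In both genes every gated library was above every library of the other cells. Their neuron-matched values were 2.31 and 1.72. There SLC10A4 in gated D45 A (71.8 CPM) lay below the other cells of D28 A (124 CPM), while each gated library was above its own other cells.

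The genes for the TH cofactor tetrahydrobiopterin were mixed. PTS (log2 fold change 0.61, SE 0.14) was higher and SPR (log2 fold change -0.93, SE 0.18) lower, both enzymes of its synthesis, and neither passed in the neuron-matched comparison (0.37 and -0.07). PTS was also lost without D45 B (0.55, edgeR adjusted p = 0.0591). GCH1, the first enzyme of the synthesis, was at 8.49, 15.0, 7.82 and 8.83 CPM against 5.72, 7.27, 8.84 and 5.72 CPM. Its log2 fold change of 0.64 passed narrowly (edgeR adjusted p = 0.0482) and was lost without D28 A (0.16), without D28 B (0.245), without D45 B (0.165) and in the neuron-matched comparison. QDPR, which regenerates the cofactor, was higher (log2 fold change 0.48, SE 0.12) and kept in the neuron-matched comparison at 0.69, but was lost without D28 A (edgeR adjusted p = 0.125) or D45 B (0.138). MAOB, which breaks dopamine down, was not called in the wider comparison (0.33) and passed in the neuron-matched one (0.73). ALDH1A1, which clears the aldehyde of dopamine and marks ventral nigral neurons, did likewise (0.70 and 1.61). It rested on 82, 16 and 9 UMIs in 19, 7 and 3 gated cells of D28 A, D28 B and D45 A. The highest cell gave 37.8%, 50% and 44.4% of the ALDH1A1 UMIs there. MAOB also passed without D28 A (0.51). The aldehyde dehydrogenase ALDH2 was lower in the wider comparison (log2 fold change -1.07, SE 0.15) and not called in the neuron-matched one (-0.13).

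Receptors of the GDNF and neurotrophin families were mixed. Of 8 listed receptors 5 were higher and 1 lower, and in the neuron-matched comparison 4 and 1. RET, the signalling receptor of the GDNF family, was at 34.6, 24.6, 41.2 and 82.1 CPM in the gated cells and 9.99, 10.7, 10.4 and 13.0 CPM in the other cells (log2 fold change 1.97, SE 0.21, neuron-matched 2.16), with no overlap. Its coreceptors GFRA2 (log2 fold change 1.45, SE 0.11, neuron-matched 1.46) and GFRA1 (log2 fold change 0.57, SE 0.15, neuron-matched 1.14) were higher too, the latter not without D28 B (edgeR adjusted p = 0.0826) or D45 A (0.0512).

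NTRK2, the receptor of BDNF, was lower instead, at 173, 229.8, 430.1 and 546 CPM against 617, 539, 1176 and 1510.4 CPM (log2 fold change -1.46, SE 0.10, neuron-matched -0.75). Astrocytes express NTRK2 strongly, and the summed level of the astrocyte list was 16.3, 10.7, 67.5 and 85.3 CPM in the gated cells and 105, 94.8, 371 and 444 CPM in the other cells. The part of astrocytes in the NTRK2 difference was not tested. NTRK3, the receptor of neurotrophin 3, was higher (log2 fold change 1.06, SE 0.23). Its neuron-matched value was 0.65, and there D45 A went the other way, with 74.2 CPM in the gated and 83.5 CPM in the other cells.

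Genes known from subtypes of dopaminergic neurons were set against the other cells with STMN2, so their calls do not compare subtypes with each other. Of 7 genes associated with the substantia nigra (A9) type 1 was higher and 5 lower. Of 12 associated with the ventral tegmental (A10) type 4 were higher and 1 lower, beside 15.0% and 16.3% of all genes. In the neuron-matched comparison the counts were 2 and 2 for A9 and 4 and 0 for A10, beside 8.23% and 6.67%. KCNJ6, the GIRK2 potassium channel of A9 neurons, was at 187, 355, 168 and 227 CPM against 76.9, 82.1, 99.3 and 91.0 CPM (log2 fold change 1.42, SE 0.19, neuron-matched 0.71). CALB1, the calcium buffer calbindin of A10 neurons, was not called (0.64, neuron-matched 0.21), and ANXA1, of the ventral A9 tier, was lower (log2 fold change -2.69, SE 0.26, neuron-matched -1.81).

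The A10-type genes that were higher included 2 neuropeptides. GRP, gastrin-releasing peptide, was at 49.1, 53.1, 16.4 and 318 CPM in the gated cells and 1.61, 0.686, 6.19 and 11.0 CPM in the other cells (log2 fold change 4.60, SE 0.62, edgeR adjusted p = 0.000973). It was highest in D45 B, where 34.1% of gated cells held it against 11.4% to 12.9% in the other libraries. Without D45 A its log2 fold change was 5.27. CALB2, the calcium buffer calretinin, was at 238, 103, 27.7 and 315 CPM against 16.4, 6.42, 36.5 and 38.2 CPM (log2 fold change 2.97, SE 0.62), and at 3.66 without D45 A. In D45 A the gated cells were below the other cells, and in the other 3 libraries above them.

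CCK, cholecystokinin, was at 385, 44.1, 123 and 71.1 CPM against 48.4, 8.63, 6.74 and 13.5 CPM (log2 fold change 2.99, SE 0.28). In D45 A 1 cell gave 65.9% of its UMIs and only 5 cells held any, whereas in D28 A 144 cells did. Without D45 A the fold change was 2.63. The neuron-matched values of GRP, CALB2 and CCK were 4.36, 2.87 and 2.63.

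CHRNB3 had the largest fold change among the genes chosen by size. It encodes a nicotinic acetylcholine receptor subunit that joins CHRNA6 in receptors of dopaminergic terminals. CHRNB3 was at 23.1, 49.9, 15.6 and 37.1 CPM in the gated cells and 0.595, 0.414, 0.326 and 1.42 CPM in the other cells (log2 fold change 5.60, SE 0.37, edgeR adjusted p = 8.50e-05), and CHRNA6 at 58.4, 91.4, 4.98 and 55.0 CPM against 5.48, 6.02, 1.59 and 3.76 CPM (log2 fold change 3.57, SE 0.26, edgeR adjusted p = 0.000103). CHRNB3 did not overlap between the groups, whereas CHRNA6 in the gated cells of D45 A lay within the range of the other cells. The neuron-matched values were 5.07 and 2.87.

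The genes for both subunits are neighbours on chromosome 17 of Sscrofa11.1, CHRNB3 at 11687646 to 11714357 on the plus strand and CHRNA6 at 11725880 to 11739949 on the minus strand. They lie 11522 bases apart with 0 annotated genes between them. CHRNB3 was detected in 13.7%, 20.8%, 8.77% and 19.9% of gated cells and CHRNA6 in 32.1%, 45.0%, 4.39% and 29.2%. In D45 A 85.7% of the CHRNA6 UMIs and 77.3% of the CHRNB3 UMIs were in cells scored as doublets. Without doublets the gated cells of D45 A held 1.22 CPM of CHRNA6 against 1.52 CPM in the other cells, and 6.09 CPM of CHRNB3 against 0.315 CPM.

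Other genes among those chosen by size were PEX5L, a regulator of HCN channels (log2 fold change 3.19, SE 0.15), TPD52L1 (log2 fold change 3.16, SE 0.29) and DMRTA2, a transcription factor of ventral midbrain progenitors (log2 fold change 2.84, SE 0.28). Their neuron-matched values were 2.73, 3.01 and 2.91.

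Genes of neuronal structure and release were higher almost throughout in the wider comparison, and fewer of them were called in the neuron-matched one. Of 16 axon and cytoskeleton genes 16 were higher, of 22 vesicle release genes 20 were higher, and of 20 potassium and HCN channel genes 15 were higher. In the neuron-matched comparison the counts were 11 of 13, 12 of 21 and 3 of 19, and the median log2 fold changes went from 1.17 to 0.61, from 0.99 to 0.45 and from 0.79 to 0.22. For 16 sodium and calcium channel genes 10 were higher, and in the neuron-matched comparison 4 of 15, with 1 lower. The other cells hold fewer neuron markers per cell, as given above. A higher level in the gated cells and a smaller neuronal part of the other cells therefore cannot be told apart in the wider comparison. The kept other cells of the neuron-matched comparison still held less STMN2, so this limit remains there.

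Of the axon genes NEFL, the light neurofilament, was at 569.9, 711, 245 and 420.4 CPM against 103, 147, 71.2 and 75.0 CPM (log2 fold change 2.30, SE 0.12, neuron-matched 1.70). GAP43, a growth cone protein, had log2 fold change 1.73, SE 0.10 and 1.11 in the neuron-matched comparison, INA, an intermediate filament, 1.70 and 0.90, and the microtubule regulator STMN3 1.41 and 0.76. All 4 passed in both comparisons. They differed in size, with NEFL highest both times.

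Of the release genes the SNARE component STX1A was at 33.1, 29.8, 23.5 and 27.2 CPM against 12.8, 8.86, 8.18 and 8.30 CPM (log2 fold change 1.62, SE 0.13, neuron-matched 0.94). The vesicle proteins SYT4 (1.29 and 0.85), SYP (1.16 and 0.55) and the calcium sensor SYT1 (0.68 and 0.32) passed in both. CADPS2, which primes dense-core vesicles and acts in monoamine loading, differed in that its neuron-matched value was the larger (log2 fold change 1.41, SE 0.38, neuron-matched 1.70). Its call in the wider comparison was lost without D45 A (edgeR adjusted p = 0.0815) or D45 B (0.0758).

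Of the channels SCN2A, a sodium channel of the axon initial segment, had log2 fold change 1.22, SE 0.11 and 0.48 in the neuron-matched comparison. Among the potassium channels KCND3, which carries A-type current, also passed in both (0.99 and 0.79).

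**Figure D3:**
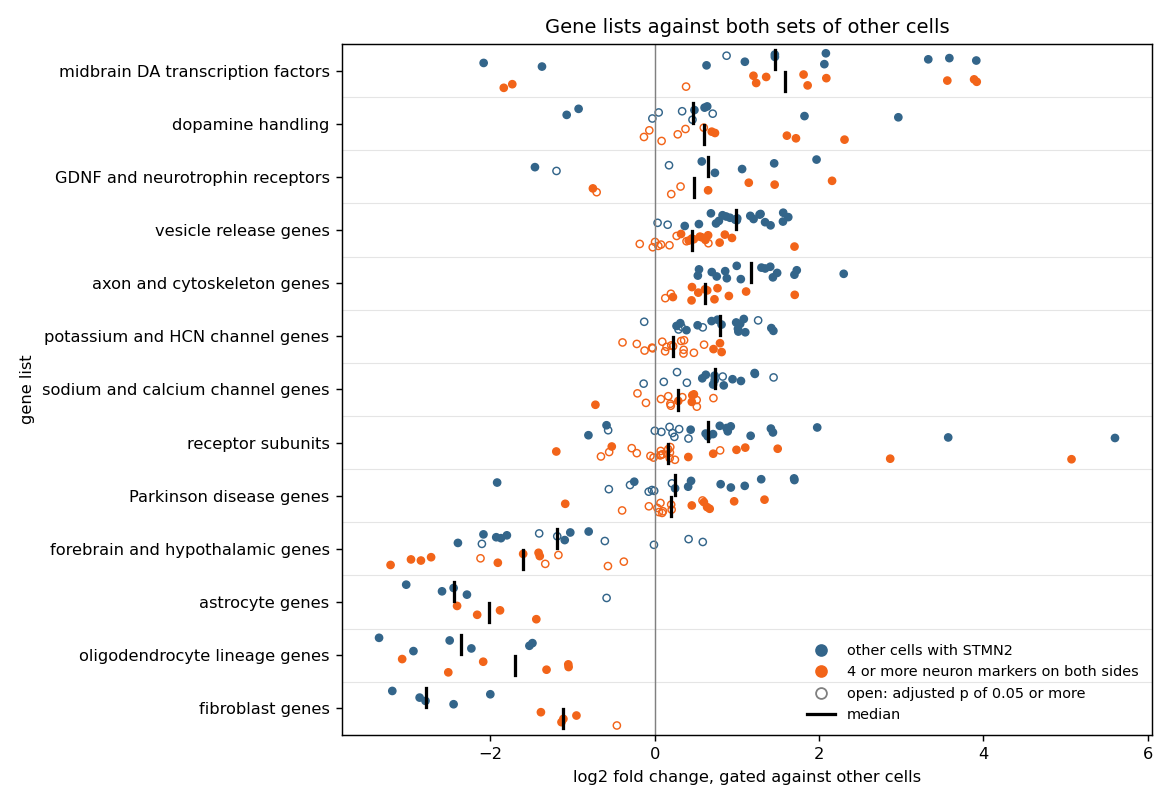
Each point is the log2 fold change of 1 gene between gated and other cells, by gene list, with blue for all other cells with STMN2 and orange for the neuron-matched comparison, filled points past the threshold and black bars at the list medians. The medians of the vesicle, axon and channel lists move toward 0 in the neuron-matched comparison, while that of the midbrain transcription factors stays at 1.46 and 1.58.

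Of 25 receptor subunit genes 15 were higher and 2 lower, and in the neuron-matched comparison 7 and 2. Besides the nicotinic subunits, the NMDA subunit GRIN2A was at 25.3, 31.6, 36.3 and 76.0 CPM against 6.39, 8.09, 19.1 and 12.2 CPM (log2 fold change 1.98, SE 0.24, neuron-matched 1.50). GRIA3, an AMPA subunit, had 0.92 and 1.10. Of 12 neurexins and partners 7 were higher and 0 lower, and in the neuron-matched comparison 3 and 1. LRRTM2 (1.24 and 0.80) and CNTNAP5 (1.70 and 0.96) passed in both.

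Of 26 axon guidance genes 6 were higher and 3 lower, beside 15.0% and 16.3% of all genes. In the neuron-matched comparison 7 were higher and 3 lower, beside 8.23% and 6.67%. The list medians lay near 0 in both, at 0.12 and -0.08, and the genes below are single members. The ephrin receptor EPHA5 was at 360.2, 707, 285 and 549.9 CPM against 118, 199, 109 and 101 CPM (log2 fold change 1.86, SE 0.16, neuron-matched 2.10), and its ligand EFNA5 had 1.10 and 1.19. EPHA7, of the same receptor family, was lower in both (-1.07 and -1.12). The slit receptor ROBO2 (1.20 and 0.64) and the semaphorin receptor PLXNC1 (1.10 and 0.57) were higher.

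Of 17 genes linked to Parkinson disease 9 were higher and 2 lower, and in the neuron-matched comparison 6 and 1. LRRK2, a kinase, was lower, at 2.72, 4.03, 3.55 and 5.20 CPM against 10.5, 19.0, 15.3 and 16.3 CPM (log2 fold change -1.92, SE 0.18, neuron-matched -1.09). SNCG (1.70 and 0.97), the ubiquitin hydrolase UCHL1 (0.93 and 0.67) and DNAJC6, which uncoats clathrin vesicles (1.09 and 0.64), were higher. PINK1, a mitochondrial kinase, was higher at 0.44 and 0.60, and in the wider comparison not without D45 A (edgeR adjusted p = 0.0614) or D45 B (0.136).

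The lower genes named by size were led by genes of other cell types. They included the oligodendrocyte lineage genes OLIG1 (log2 fold change -3.36, SE 0.48, neuron-matched -3.08) and PDGFRA (log2 fold change -2.94, SE 0.28, neuron-matched -2.51), the collagen COL1A1 (log2 fold change -3.20, SE 0.27, neuron-matched -1.39) and the astrocyte water channel AQP4 (log2 fold change -3.03, SE 0.23, neuron-matched -2.41), with EPSTI1, PCLAF, CD36, APOD, COL6A3 and CTSC. Without D45 B the value of OLIG1 was -5.94 and that of PDGFRA -3.60. Of the marker lists 6 of 6 oligodendrocyte, 5 of 5 fibroblast and 4 of 5 astrocyte genes were lower, and 6 of 6, 4 of 5 and 4 of 4 in the neuron-matched comparison. The progenitor gene HES1 (-2.84 and -1.50) and the mitotic gene TOP2A (-2.62 and -2.76) were lower in both.

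Genes of other transmitters were partly present. SLC17A6, the vesicular glutamate transporter that some midbrain dopaminergic neurons also use, was not called, at 79.4, 111, 64.0 and 52.0 CPM against 81.2, 97.1, 40.1 and 48.8 CPM (log2 fold change 0.25, SE 0.12). In the neuron-matched comparison it was not called either, at -0.50, with 83.3, 114, 70.1 and 55.6 CPM against 178, 182, 57.7 and 81.9 CPM. The gated and other cells overlapped. In D28 A SLC17A6 was detected in 22.5% of gated cells with EN1 and in 54.3% of those without it, and in D28 B in 32.2% and 60.2%. On D45 the order was the other way, with 39.3% and 24.4% in D45 A and 28.3% and 23.9% in D45 B. Cells with and without EN1 had medians of 9502.5 and 9227.5 UMIs in D28 A, and 13489.5 and 9236 in D45 B.

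Of 3 cholinergic genes 2 were higher in both comparisons. The choline transporter SLC5A7 was at 4.92, 46.6, 4.27 and 1.81 CPM against 1.26, 7.07, 0.675 and 0.784 CPM (log2 fold change 2.28, SE 0.29, neuron-matched 1.72), and the vesicular acetylcholine transporter SLC18A3 at 1.36, 3.36, 0 and 0.679 CPM against 0.159, 0.509, 0.0931 and 0.288 CPM (log2 fold change 2.44, SE 0.48, neuron-matched 1.70). SLC5A7 lay mainly in D28 B, and SLC18A3 was low in every library. SLC18A3 was not called without D28 B (edgeR adjusted p = 0.0722).

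Genes of the forebrain and hypothalamus, where other TH neurons arise, were lower on balance, with 0 of 15 higher and 8 lower, and 0 of 13 and 8 in the neuron-matched comparison. DLX5, a factor of forebrain GABAergic neurons, was at 0.509, 4.48, 9.24 and 10.2 CPM against 1.59, 27.1, 35.8 and 30.1 CPM (log2 fold change -1.93, SE 0.20, neuron-matched -2.97). Since the gate removed cells with GABAergic genes, a lower level of DLX genes is tied to the rule. NKX2-1 (log2 fold change -0.81, SE 0.14, neuron-matched -1.41) and SIM1 (log2 fold change -2.40, SE 0.31, neuron-matched -3.22), both hypothalamic, were lower too, SIM1 at -3.31 without D28 B. SIX3 was lower (-1.03), at -1.71 without D45 A, and was not called without D28 B (edgeR adjusted p = 0.12) or D45 B (0.213).

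Cell by cell, the makeup of the gated cells differed between libraries. At least 1 of LMX1A, EN1 and FOXA2 was detected in 92.5%, 81.8%, 43.9% and 73.8% of gated cells, and at least 1 of SIX3, DLX5 and NKX2-1 in 7.51%, 15.3%, 36.0% and 21.5%. Both sets were found together in 6.41%, 8.95%, 6.14% and 9.54%. SIX3, DLX5 or NKX2-1 without any of LMX1A, EN1 and FOXA2 was found in 1.10%, 6.32%, 29.8% and 12.0%. D45 A thus had the smallest share with floor plate or engrailed factors and the largest with the forebrain set, although its gated cells were the deepest, with a median of 11573.5 UMIs. In D45 A the midbrain part of the label thus rests on 43.9% of the gated cells, called doublets included. Called doublets held 80.9% of the LMX1A, 61.9% of the EN1 and 45.2% of the FOXA2 UMIs there. The share of other cells with at least 1 of these genes was not counted.

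Between D45 and D28 few genes of the gated cells passed. Of 13193 genes tested in the 4 sums, 0.826% were called higher and 0.447% lower on D45 (109 and 59 genes). None of the 10 midbrain transcription factors tested was called, nor any of 11 dopamine handling, 22 vesicle, 16 axon, 14 sodium and calcium channel, 19 potassium channel and 24 receptor genes (edgeR). At an unadjusted p under 0.05 there were 2322 genes over the whole table. The number called moved widely with the library left out, from 180 without D45 A to 2271 without D28 B, 345 without D28 A and 322 without D45 B. In each of these fits 1 day has a single library, which is assumed to vary like the libraries of the other day. Of the 168 genes called, 98 were also called without D45 A.

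Among the midbrain factors EN1 had a log2 fold change of -1.34 from D28 to D45 (SE 0.49, edgeR adjusted p = 0.191), and its 59.7 CPM in D45 A lay well under the 204 CPM of D45 B. It was called without D28 B (-1.63) and without D45 B (-2.51). EN2 (-1.04) and CHRNA6 (-1.26) were not called either, and both were called without D45 B (-2.17 and -3.99). FOXA2 (-1.23) was called without D28 B (-1.57) or D45 A (-2.73). LMX1A (-0.33, SE 0.32) and KCNJ6 (-0.52) were not called with any library left out.

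RET (0.96) and GRP (1.65) had positive values that were not called, RET being called without D28 A (1.38) and GRP without D45 A (2.54). For GRP D45 A was the lowest and D45 B the highest of the 4 libraries.

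SIX3, a transcription factor of the anterior forebrain and hypothalamus, had the largest rise among the named genes. It stood at 0, 2.24, 73.9 and 20.1 CPM (log2 fold change 5.35, SE 0.84, edgeR adjusted p = 0.0114), in 0, 7, 32 and 38 gated cells. Without D28 A, D45 A or D45 B the log2 fold change was 4.28, 4.21 and 6.07. Without D28 B the remaining D28 library held 0 SIX3 UMIs of 5890844, and D45 was at least 65.1-fold higher against a floor of 3 counts in that library. SIX3 passed the threshold in all 4 fits. In the other cells SIX3 was at 0.529, 9.30, 78.1 and 59.7 CPM, also higher on D45.

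**Figure D4:**
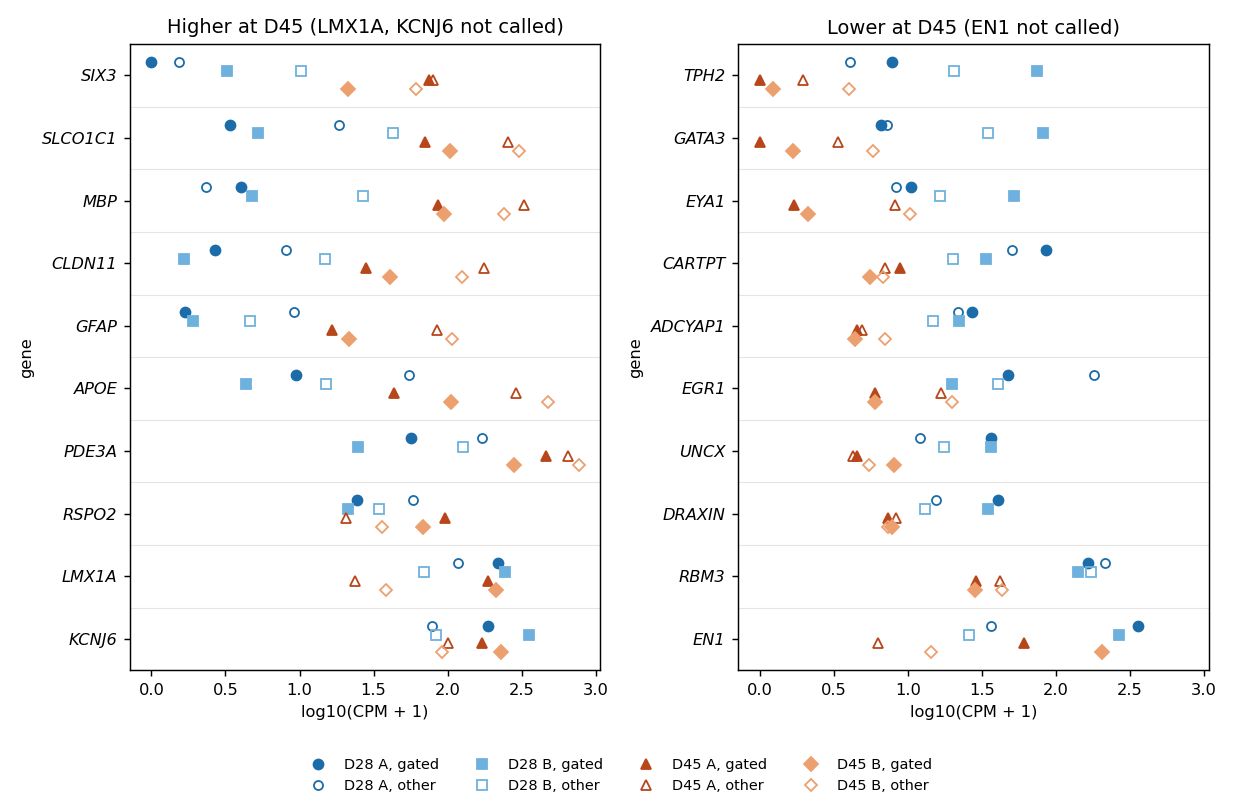
Each row is a gene and each symbol 1 library, filled for gated and open for other cells, on an axis of log10(CPM + 1), with circles and squares for D28 and triangles and diamonds for D45. The glial genes MBP, CLDN11 and GFAP are higher on D45 in both kinds of cell, and RBM3 is lower on D45 in both.

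The rises named by size included the glial genes MBP, CLDN11, BCAN, BCAS1 and APOE, and for MBP and CLDN11 both D45 libraries of the other cells also lay above both of D28. MBP, a myelin protein, was at 3.06, 3.81, 84.6 and 92.8 CPM in the gated cells (log2 fold change 4.58, SE 0.34, edgeR adjusted p = 9.55e-05) and 1.35, 25.7, 328 and 240.1 CPM in the other cells. CLDN11, a tight junction protein of myelin, was at 1.70, 0.672, 27.0 and 40.1 CPM in the gated cells (log2 fold change 4.62, SE 0.51) and 7.16, 13.8, 174 and 124 CPM in the other cells. The summed level of the oligodendrocyte list was 10.5, 11.0, 193 and 196 CPM in the gated cells and 42.2, 88.3, 862 and 674 CPM in the other cells. The part of oligodendrocyte RNA in the result was not tested.

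A few cells carried much of these UMIs. In D45 A 1 cell gave 82.4% of the MBP UMIs and 81.6% of those of CLDN11, whereas in D45 B the highest cell gave 17.1% and 27.1%. Of these UMIs in D45 A 91.6% and 86.8% were in cells scored as doublets. Without D45 A the log2 fold changes of MBP and CLDN11 were 4.66 and 4.87, both past the threshold. Without called doublets they were 3.90 and 4.63.

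Of the astrocyte genes AQP4 (4.17), GFAP (4.40) and SLC1A3 (2.02) rose, and so did APOE (3.49), which astrocytes secrete. GFAP was at 0.679, 0.896, 15.6 and 20.6 CPM, in 4, 4, 13 and 61 gated cells. In D45 A the highest cell gave 18.2% of its UMIs, a smaller share than for MBP, which was in 21 cells there. AQP4 held 4 and 0 UMIs on D28, and without D28 A it was at least 13.3-fold higher on D45 against a floor of 3 counts in D28 B. Leaving out 1 library moved SLC1A3 to 2.73 (without D28 A) and APOE to 2.67 (without D45 B).

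SLCO1C1, a thyroid hormone and organic anion transporter, rose from 2.38 and 4.26 CPM to 69.7 and 103 CPM (log2 fold change 4.63, SE 0.39), in 8, 10, 14 and 88 cells. In D45 A 1 cell gave 56.1% of the SLCO1C1 UMIs, and the log2 fold change was 4.89 without D45 A. PDE3A, a phosphodiesterase of cyclic nucleotides, was at 55.8, 23.7, 458 and 278 CPM (log2 fold change 3.03, SE 0.48), in 114, 45, 52 and 160 cells. In the neuron-matched other cells PDE3A was at 54.2, 53.1, 350 and 410 CPM, also higher on D45. In D45 A 72.5% of the PDE3A UMIs of the gated cells were in called doublets. Its log2 fold change was 2.65 without D45 A and 2.53 without doublets. RSPO2, a WNT agonist, was at 23.3, 20.4, 94.6 and 67.2 CPM (log2 fold change 1.75, SE 0.31) and missed the threshold without D45 A (edgeR adjusted p = 0.0566). The neuropeptide NPY rested on 1 cell of D45 A with 86.3% of that library's UMIs, and its log2 fold change of 4.05 became 2.00 without D45 A (edgeR adjusted p = 0.132).

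**Figure D5:**
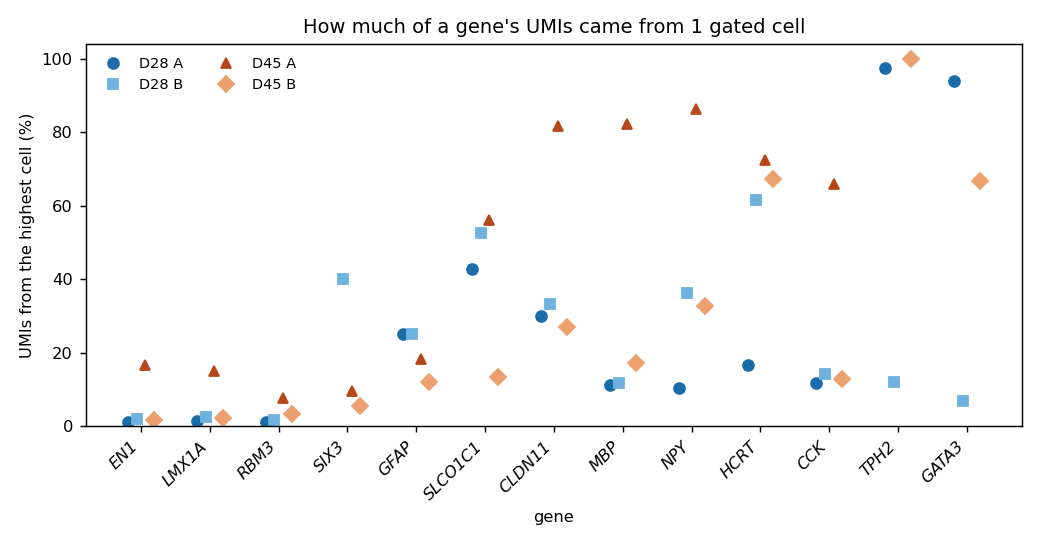
For each gene and library the plot gives the share of the gene's UMIs in gated cells that came from the single highest cell. The points of EN1, LMX1A and RBM3 lie mostly low in each library, while MBP, CLDN11, NPY and HCRT in D45 A and TPH2 and GATA3 in D28 A lie above 70%.

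The largest named falls were genes of hindbrain aminergic neurons. TPH2, which makes the precursor of serotonin, was at 6.79, 73.5, 0 and 0.226 CPM (log2 fold change -7.63, SE 1.30, edgeR adjusted p = 0.016), and GATA3, a factor of serotonergic neurons, at 5.60, 81.3, 0 and 0.679 CPM (log2 fold change -6.33, SE 1.22, edgeR adjusted p = 0.0289). D28 B held nearly all of this signal. In D28 A 1 cell gave 97.5% of the TPH2 and 93.9% of the GATA3 UMIs, whereas in D28 B 37 cells held TPH2 or SLC6A4, the serotonin transporter, and of these 26 held GATA3 and 20 EN1. Of the D28 A UMIs 97.5% for TPH2 and 100% for GATA3 were in called doublets. Without D28 B the log2 fold changes were -5.30 and -3.65. On D45 1 TPH2 and 3 GATA3 UMIs remained, so the fitted values depend on the prior count. The plain ratio of D28 to D45 was 207 for TPH2 (exact 95% interval 36.9 to 8199, counting error only) and 74.3 for GATA3 (25.2 to 362).

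At least 1 of TPH2, SLC6A4 and FEV was detected in 0.549%, 10.5%, 0.877% and 2.18% of gated cells. SLC6A4 was higher in the gated than in the other cells (log2 fold change 1.35, SE 0.40), but not without D28 B (0.52, edgeR adjusted p = 0.492) or D45 B (0.0686). EYA1, a transcriptional cofactor, was lower on D45, at 9.51, 51.3, 0.711 and 1.13 CPM (log2 fold change -4.87, SE 0.80), and at -3.42 without D28 B.

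Of 6 immediate early genes tested, which neuronal activity can induce, 3 were called lower on D45 and 0 higher. FOS was at 111, 52.6, 17.1 and 26.5 CPM (log2 fold change -2.02, SE 0.42), EGR1 at 46.5, 18.8, 4.98 and 4.98 CPM (log2 fold change -2.87, SE 0.53) and NPAS4 at 16.3, 5.15, 0.711 and 0 CPM (log2 fold change -5.84, SE 1.12). D28 A was the highest library for all 3. In the neuron-matched other cells all 3 were also lower on D45, with FOS at 156, 59.2, 36.5 and 36.3 CPM. EGR1 was at 74.1, 28.7, 9.61 and 12.7 CPM there, and NPAS4 at 19.4, 7.15, 2.34 and 1.98 CPM. JUN, at 190.1, 135, 235 and 242 CPM, and NR4A3, at 9.85, 15.2, 25.6 and 18.3 CPM, had positive values that were not called (0.42 and 0.69). NPAS4 held 119 UMIs on D28 and 1 on D45, a ratio of 66.9 with an exact 95% interval of 11.8 to 2666. FOS was not called without D28 A (-1.20, edgeR adjusted p = 0.0552) or D45 A (0.0655), and NPAS4 not without D28 A (0.0765).

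RBM3, an RNA-binding protein induced by cold, was at 162, 139, 27.7 and 27.4 CPM (log2 fold change -2.58, SE 0.32, edgeR adjusted p = 0.00272) and was detected in 71.1%, 71.8%, 25.4% and 24.0% of gated cells. The libraries of a day lay close together and the days did not overlap. In the other cells RBM3 fell too (212, 171, 41.1 and 42.5 CPM, log2 fold change -2.33). With each library left out in turn the fall in the gated cells kept its call.

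Of the neuropeptide genes CARTPT, ADCYAP1 and PENK fell, whereas NPY was called higher, as given above. CARTPT was at 84.7, 32.7, 7.82 and 4.53 CPM (log2 fold change -3.54, SE 0.54), ADCYAP1, the PACAP precursor, at 26.0, 21.1, 3.55 and 3.39 CPM (log2 fold change -2.88, SE 0.43) and PENK, proenkephalin, at 84.2, 121, 12.8 and 18.8 CPM (log2 fold change -2.73, SE 0.32). The days did not overlap for any of them. Without D28 A the fall of CARTPT was -2.51, and in D28 B 1 cell gave 41.8% of its UMIs. For PENK the highest cell gave 31.9% of the UMIs in D28 A and 6.49% in D28 B. Called doublets held 50.6% and 10.0% of the PENK UMIs in these libraries. They held 31.4% and 4.26% of those of ADCYAP1. The transcription factor UNCX (log2 fold change -2.71, SE 0.40) and the axon guidance protein DRAXIN (log2 fold change -2.58, SE 0.38) fell too. SNCG (-1.84), not called without D45 A, and EPHA7 (-1.75), not called without D45 B, fell as well. In the neuron-matched other cells ADCYAP1 (51.6, 25.9, 4.74 and 9.86 CPM) and SNCG (45.9, 34.7, 5.52 and 9.26 CPM) were also lower on D45. EPHA7 was lower there too (196, 122, 40.1 and 43.6 CPM).

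Whether the ratio of gated to other cells differed between the days was tested over all 8 sums. The tested value is the log2 ratio of gated to other cells on D45 minus that on D28, so its sign does not say whether the gap grew. Of 19712 genes 1.97% had a higher and 1.20% a lower log2 ratio on D45. In the neuron-matched comparison 0.0403% and 0.0173% of 17349 genes had a higher and a lower one, 7 and 3 genes in all. At an unadjusted p under 0.05 there were 1192. Of the 625 genes called in the wider comparison 9 were called in the neuron-matched one. That comparison changed both sides, with 453, 363, 94 and 296 gated cells left. With cells that held GABAergic genes or TH left out of the other cells alone, 585 and 599 genes were called.

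Of the 8 genes with a symbol among those 10, some are described here, with levels in the neuron-matched cells. CHGB, a granin of dense-core vesicles, was at 132, 96.6, 206 and 257 CPM in the gated cells and 82.1, 65.4, 44.7 and 66.7 CPM in the other cells (difference between days 1.43 in log2, SE 0.14, edgeR adjusted p = 0.0108). CHGB in the gated cells was above the other cells on both days, by more on D45. Over all gated and other cells its difference between days was 2.61. STMN2 also had its wider relative gap on D45 in the neuron-matched cells, at 3293 and 4581 against 1440 and 1705 CPM. On D28 STMN2 was at 5347 and 3741 against 4371 and 2389 CPM. The part of this in the differences between days was not tested. CADPS2 was at 92.7, 143, 158 and 362 CPM against 69.1, 71.1, 31.3 and 54.7 CPM (1.83), also with the larger gap on D45.

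TAC3, a tachykinin, was at 22.6, 39.2, 24.5 and 48.9 CPM against 69.3, 154, 13.4 and 35.7 CPM (2.38), below the other cells of the same library on D28 and above them on D45. In D45 B 1 cell gave 60.3% of the TAC3 UMIs over all gated cells. FILIP1L (2.03) and THSD7A (1.19) were likewise below on D28 and above on D45.

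The G protein regulator RGS6 was at 75.7, 70.7, 97.0 and 172 CPM against 63.9, 50.3, 30.7 and 58.3 CPM (1.23), and over all gated and other cells its difference was 0.62 and not called (edgeR adjusted p = 0.0544). In D45 A 80.5% of the RGS6 UMIs over all gated cells were in called doublets, and 1 cell gave 38.2%. EYA1, above the other cells on D28 and below them on D45, changed by -4.08. FABP7, a fatty acid binding protein of radial glia, was below them on both days and changed by -1.68.

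In the wider comparison LMX1A also passed (1.38, edgeR adjusted p = 0.00235). In the other cells it was at 116 and 68.6 CPM on D28 and 22.5 and 37.5 CPM on D45, and in the gated cells between 186 and 242 CPM, with most UMIs of D45 A in called doublets as given above. The value was 0.91 without D28 A and 1.13 without D45 A, both called, and 0.90 without doublets, not called (edgeR adjusted p = 0.0879). It did not pass in the neuron-matched comparison (1.34, edgeR adjusted p = 0.366).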

How the data were processed

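Single-cell suspensions of whole organoids were run on GEM-X 3' v4 chips. Alignment by the authors used Cell Ranger and the Sscrofa11.1 genome, and the deposited values are unnormalized UMI counts of 30477 genes in every barcode. Per the labels' processing notes they also used Seurat 4.3.0. Their cell annotation was not used here. Of the genes 16266 were named in the files and 834 through the reference table.

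Cells under 2000 UMIs or over 7000 genes were left out, and the gate was applied. The members and all gene lists were chosen with earlier results of these data known. UMI counts were summed per library and class and fitted with edgeR 4.0.16 (TMM, filterByExpr, quasi-likelihood) in R 4.3.3. Library was a term against the other cells, and no covariate was used between days. The SE given is the absolute log2 fold change divided by the square root of the test's F statistic, and not a fitted standard error. Named genes were list members and, per test, the 10 largest calls in each direction with a symbol, at least 20 CPM and either the same direction in each library (against the other cells) or no overlap between the days, and some of them are not reported here. Doublets were scored against simulated ones at a rate that rises by 0.4% with each 1000 cells. In simulated sums of 2-fold changes edgeR found 97% of 200 genes against the other cells and 50.5% between days. For the difference between days it found 7.5%, with 10, 6 and 0 false calls in turn. The simulation had a fixed dispersion and no library effects, and changed only genes with enough counts. Over genes, the real gated replicates differed with an SD of 1.17 (D28) and 1.50 (D45) in log2. The simulated shares and false calls therefore need not hold for these data.

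Alternatives were DESeq2 1.42.0, its size factors, all genes kept whatever their counts, omission of single libraries, other gates, thinning, doublets removed, the replicate letter as a block and, chosen after the data were seen, members with EN1, the neuron-matched cells and crossed letters. Promoter windows were read from RefSeq's Sscrofa11.1. Of 329 list genes 310 had a row. The D11 libraries were used only to count cells that pass the gate. Python 3.11.15 was used, and no columns of other samples were present.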

Additional observations from a re-analysis of the deposited data

Results flagged for a closer look

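The difference between D28 and D45 in the log2 ratio of gated to other cells passed edgeR's interaction test (Benjamini-Hochberg adjusted p under 0.05) in the neuron-matched comparison for 10 genes. The log2 ratio of gated to other cells was higher on D45 for THSD7A by 1.19, RGS6 by 1.23, CHGB by 1.43, CADPS2 by 1.83, FILIP1L by 2.03, TAC3 by 2.38 and the gene with no symbol ENSSSCG00000042559 by 2.68. Of these, THSD7A, FILIP1L, TAC3 and ENSSSCG00000042559 were below the other cells on D28 and above them on D45. The relative gap of STMN2 in these cells was also wider on D45, as given above. The change was -1.68 for FABP7, -3.37 for ENSSSCG00000045408, which has no symbol either, and -4.08 for EYA1, which was in 20, 24, 1 and 5 gated cells.

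In the comparison with all other STMN2 cells, further genes passed the same test that did not pass in the neuron-matched one. Among them the change was 1.38 for LMX1A, 2.59 for RSPO2, -1.96 for NRXN3, -5.47 for TPH2, -3.80 for GATA3, -2.07 for CALB2 and 3.34 for HCRT, the orexin precursor of hypothalamic neurons. For HCRT 1 gated cell gave 72.3% of the UMIs in D45 A and 1 gave 67.3% in D45 B, and the value was 1.79 without D45 A. For CALB2 it was -0.88 without D45 A and -4.38 without D45 B. TPH2 and GATA3 did not pass without D45 B (edgeR adjusted p = 0.118 and 0.146), where the one remaining D45 library held 0 UMIs of either gene in gated cells.

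On D11, which entered no comparison, 1.51% of the cells of replicate A and 1.44% of those of replicate B passed the same gate (197 and 211 cells). The TH background of cells that should lack TH was not measured on D11, so these shares are not set against it. The median gated cell there held 18386 and 17828 UMIs, more than on the later days.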

How the results depend on the processing

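Against the other cells 5724 genes were called, 3157 when cells were thinned to 2000 UMIs and 1192 with no library term (no replicate block). The neuron-matched comparison gave 2400, counting markers that it selects on, which the shares given above leave out. Leaving out a library gave 3879 to 6029. Between days 168 genes were called, 306 with DESeq2, 882 with no filter on low counts, 77 after thinning, 22 with all 8 sums in one fit and 180 to 2271 when 1 library was dropped. A replicate block on the letters gave 530 genes, with 168 of the 168 among them. Same-letter libraries deviated with a correlation of -0.055 in the gated and -0.279 in the other cells, so the letters give no pairing. A replicate block with the letters crossed, chosen after the data were seen, gave 1414 genes. The difference between days was called for 625 genes, 412 with DESeq2, 1098 with no filter, 246 after thinning, 10 in the neuron-matched comparison and 526 to 1005 with a library left out. The mean share of gated cells moved from 4.67% and 2.19% on D28 and D45 to 1.42% and 0.580% after thinning and to 9.32% and 5.23% with 1 TH UMI required, and by leaving out 1 library it was 3.43% to 5.91% on D28 and 1.09% to 3.29% on D45.

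For the 77 genes followed against the other cells, 1293 of the alternative values stayed on the same side of the threshold, 14 gained a call and 75 lost one, of which the fit without a library term accounts for the most. For 36 genes between days the numbers were 547, 21 and 66, and for 15 genes of the difference 226, 7 and 22. Of the 66 values that lost a call between days, 23 came from the fit of all 8 sums, the most of any alternative. Genes with no call changed sign in 6 values against the other cells and in 3 between days. In 1 case the direction of a call turned: TOP2A, called higher on D45, was at -0.078 in gated cells with 2 or more partner genes, and 1 cell gave 53.1% of its UMIs in D45 A and 1 gave 71.0% in D45 B. The causes were not tested. The gated cells of D45 A hold 1406538 UMIs, which limits what can be seen of low genes there, and the 2 libraries a day limit the spread estimate.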
